A study of Mus musculus with 18 samples.

Results

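A set of 6 genes that help to set the cellular polyamine level was followed through poly-A RNA and ribosome footprints of the mouse left ventricle: Odc1, Azin1, Oaz1, Oaz2, Amd1 and Sat1. They were chosen by symbol, through the Ensembl identifier of each row, and all 6 of the 6 genes named were found among the 10597 genes that the deposited tables list. The hearts came from untreated male C57BL/6 mice aged 20 weeks under normal housing, 4 wild type and 5 with a knockout of mORF4/NBDY, the microprotein encoded by Nbdy, which is known to bind the mRNA decapping machinery. The labels do not give the allele, or whether the genotypes were littermates. Each heart gave an RNA library and a footprint library, so 18 libraries were compared. Footprints are the mRNA fragments that translating ribosomes protect, and their level relative to the RNA of the same heart is called translational efficiency.

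Polyamines (putrescine, spermidine and spermine) are small cations that bind RNA and are needed for growth and translation. Their synthesis is held in a feedback loop that acts largely on translation and protein stability. Ornithine decarboxylase, made from Odc1, forms putrescine, and the antizymes made from Oaz1 and Oaz2 bind it and carry it to the proteasome. Full-length antizyme is made only when ribosomes shift reading frame on its mRNA, a step that polyamines promote. The antizyme inhibitor made from Azin1 resembles ornithine decarboxylase, has no enzymatic activity, and binds antizyme in its place. S-adenosylmethionine decarboxylase, made from Amd1, supplies the aminopropyl groups for spermidine and spermine, and spermidine/spermine acetyltransferase, made from Sat1, starts their breakdown and export. In the heart, ornithine decarboxylase activity is known to rise during hypertrophic growth.

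The element known for translational control of Amd1 is a short reading frame ahead of its coding sequence, on which ribosomes stall when polyamines are abundant. It is shown because it could be read from the reference and because Amd1 had the fewest footprints of the 6 genes. It lies at chr10:40302155-40302175 (GRCm38.p6, minus strand), 13 bases after the annotated start site, and runs for 6 codons and a stop. Amd2, a copy of Amd1 on the same chromosome, carries the same 21 bases at chr10:35711860-35711880 (GRCm38.p6, minus strand). Capitals mark the start and stop codons, written 5′ to 3′ as in RefSeq.
Amd1: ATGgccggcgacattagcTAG
Amd2: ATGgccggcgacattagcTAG
The search covered the first 50 transcribed bases, on the transcribed strand, for an ATG followed in frame by TAA, TAG or TGA. Such a frame was present in 3856 of 32851 RefSeq windows (11.7%), and the 21-base sequence itself was present in 2. Windows were matched for 5 of the 6 genes. Those of Odc1, Oaz1, Oaz2 and Sat1 held no complete frame within the 50 bases, which says nothing of the rest of their leaders.

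On GRCm38, Odc1 (ENSMUSG00000011179) spans chromosome 12, 17544808 to 17551502, and Azin1 (ENSMUSG00000037458) spans chromosome 15, 38487430 to 38519294. Oaz1 (ENSMUSG00000035242) spans chromosome 10, 80826656 to 80829290, and Oaz2 (ENSMUSG00000040652) spans chromosome 9, 65676548 to 65690300. Amd1 (ENSMUSG00000075232) spans chromosome 10, 40287458 to 40302188. Sat1 (ENSMUSG00000025283) spans chromosome X, 155213126 to 155216449, and its lower coordinate lies 1.47 Mb from the upper coordinate of Nbdy. RefSeq places no other gene over Oaz2, Amd1 or Sat1. A small non-coding RNA gene lies within each of Odc1, Oaz1 and Azin1 (Gm22748, Mir1982 and Mir6951), and since the RNA kit does not mark strand its reads cannot be told apart from those of the host.

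Whole reads over the listed genes were 11172198 to 12363740 in wild-type and 15794158 to 20194680 in knockout RNA libraries. Footprint libraries held 6671555 to 36702120 reads in wild type and 22911504 to 40800937 in knockout. Wild-type heart 2 had the shallowest footprint library. Nbdy footprints averaged 183 ± 116 after normalization over the wild-type hearts (SD, n = 4) and 14.3 ± 3.46 over the knockout hearts (SD, n = 5), with all 5 knockout hearts below all 4 wild-type hearts, as the labels state. All 8 ventricular cardiomyocyte markers looked up were listed, with a summed normalized RNA signal of 1916602 to 2238218 in wild type and 1752208 to 1974348 in knockout. Of 3 atrial markers 2 were listed. Their summed RNA signal was 8435 to 13668 in wild type and 3254 to 4790 in knockout, which do not overlap. Of the 2, Myl4 fell by 1.56 in log2 units (limma adjusted p = 6.07e-06). The other did not pass, and its log2 fold change was above 0, since the median of the 2 was -0.01. The 2 markers thus went in opposite directions, and the lower sum is not a fall of both. Their summed footprints, 1621 to 3883 in wild type and 1809 to 6978 in knockout, overlapped. Summed RNA of endothelial, fibroblast, smooth muscle, macrophage and erythrocyte markers overlapped between genotypes, though single markers differed. Of 5 endothelial markers 3 were lower and 1 higher in knockout RNA (limma adjusted p below 0.05), where 25.1% and 24.3% of all genes were. Of 5 macrophage markers 2 were lower and 2 higher, and of 5 smooth muscle markers 1 was lower and 2 higher. Among fibroblast and erythrocyte markers 1 of 5 each was higher and none lower. The part of these cell types in the results was not tested, and in whole ventricle fewer cells of a type and less RNA per cell cannot be told apart.

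The 6 genes differed in footprints per RNA over a wide range, and the order of the means was the same in both genotypes. Dividing the footprint signal by the RNA signal of the same heart gave a ratio that had a median of 1.45 over the 9974 genes that passed the filter in both assays (a mean of at least 10 in each) in wild type. It does not depend on gene length as a level does, but footprints come mostly from coding sequence and RNA reads from the whole transcript, so the order between genes is a description and was not tested.

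Azin1, the antizyme inhibitor, had the highest ratio. It was 4.46, 3.15, 3.82 and 4.33 in wild-type hearts 1 to 4, with a mean of 3.94 ± 0.592 (SD, n = 4). The knockout hearts 6 to 10 gave 3.65, 2.90, 3.38, 3.22 and 3.29. These values are above the median gene in every heart, and 89.2% of genes had a lower wild-type ratio.

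Sat1 came next, at 1.11, 2.02, 1.91 and 0.901 in wild type, with a mean of 1.49 ± 0.564 (SD, n = 4). That is close to the median of all genes, as 50.9% had a lower ratio. In knockout it was 1.09, 0.678, 0.515, 0.875 and 1.08, and 27.2% of genes were lower.

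The antizyme mRNAs and Odc1 lay in the low tail. Oaz2 had ratios of 0.355, 0.207, 0.274 and 0.327 in wild type and 0.143, 0.411, 0.218, 0.229 and 0.250 in knockout. Its wild-type mean of 0.291 ± 0.0651 (SD, n = 4) was 4.99 times below the median gene, and 8.57% of genes were lower. Odc1, whose enzyme starts the pathway, had ratios of 0.0812, 0.0947, 0.0576 and 0.0508 in wild type and 0.0819, 0.0660, 0.0758, 0.0549 and 0.0707 in knockout. The Odc1 wild-type mean of 0.0711 ± 0.0204 (SD, n = 4) was 20.4 times below the median, with 2.11% of genes lower.

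Oaz1, the gene for the major antizyme, was lower still although its RNA was abundant in every heart. Its ratios were 0.00915, 0.0241, 0.0140 and 0.00950 in wild type and 0.0185, 0.0348, 0.0210, 0.0182 and 0.0116 in knockout. The wild-type mean of 0.0142 ± 0.00698 (SD, n = 4) was 102 times below the median, and 56 of the 9974 genes were lower. Both antizymes therefore lay below the median gene, but the ratio of Oaz2 was above that of Oaz1 in all 9 hearts.

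Amd1 footprints were close to absent. Whole footprint reads were 0, 0, 9 and 11 in wild-type hearts 1 to 4 and 0, 0, 0, 18 and 9 in knockout hearts 6 to 10, beside 412 to 1448 whole RNA reads per library. In the 5 hearts with no footprint a count of 0 allows up to 3 reads, which covers counting error only. The ratio in the other hearts was 0.0168 and 0.00903 in wild type and 0.0155 and 0.00572 in knockout. With a mean below 10 in footprints Amd1 did not pass the filter there. Of 4128 genes with a mean RNA signal of at least 500, 143 (3.46%) had a mean footprint signal below 10, and Amd1 was among them. Of the 143, 74 have a symbol that is neither a Gm number nor a -ps pseudogene name. The 4128 genes were not split in this way.

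In wild type, neighbours in the order Azin1, Sat1, Oaz2, Odc1 and Oaz1 did not overlap, since the lowest heart of each lay above the highest heart of the next. The same held in knockout, where the closest pair was Sat1 at no less than 0.515 and Oaz2 at no more than 0.411. Oaz1 and Amd1 overlapped in both genotypes, with Oaz1 the higher in 3 of 4 wild-type and 5 of 5 knockout hearts.

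**Figure D1:**
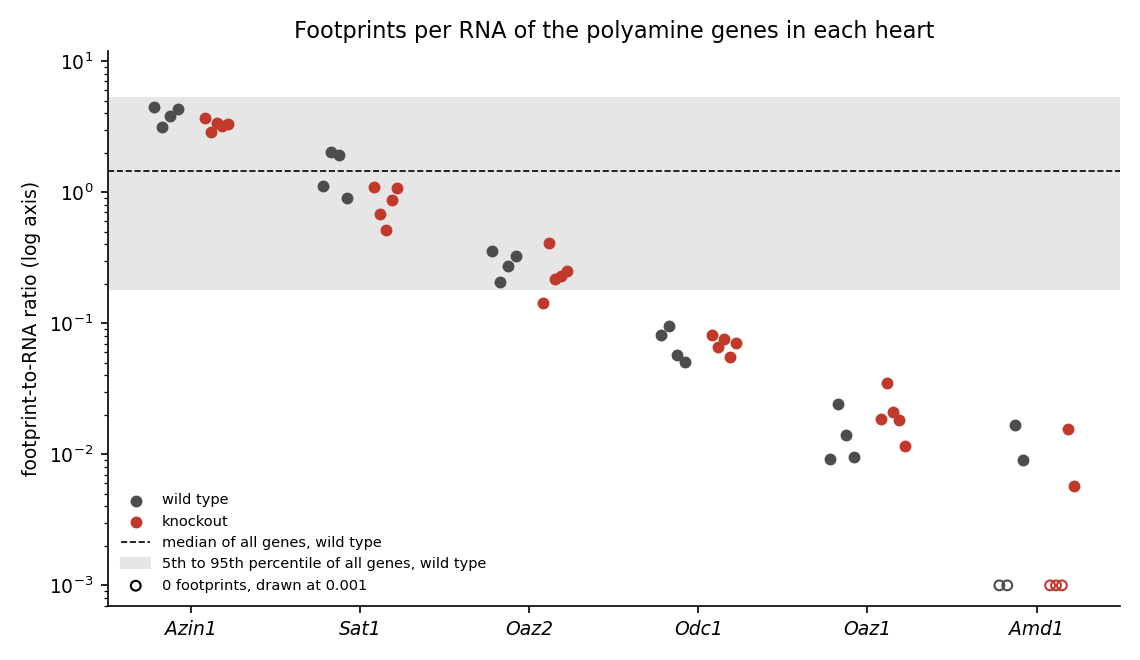
Footprint-to-RNA ratio (log axis) of each gene in 4 wild-type hearts (grey) and 5 knockout hearts (red), with open circles for hearts without a footprint. The dashed line is the wild-type median of 9974 genes (1.45) and the band their 5th to 95th percentile (0.183 to 5.22); Odc1, Oaz1 and Amd1 lie below the band in every heart.

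Genes with near-identical copies elsewhere in the genome are uncertain in such tables, since short reads may not be assigned to a single locus. RefSeq and Ensembl symbols name Oaz1-ps and Oaz2-ps as copies of the antizymes, and Amd2 and 7 pseudogenes as copies of Amd1. Amd1 was searched under the stem Amd, and the other genes under their full symbol only. No copy was found in that form for Odc1, Azin1 or Sat1, which does not show that none exists. Among all genes that passed the filter, 217 have a copy named by a -ps symbol, and their median wild-type ratio was 0.300 against 1.47 for the other 9757. A ratio below 0.1 was found in 33.6% of genes with such a copy and 2.15% of the others. The part of sequence copies in the low ratios of Odc1, Oaz1, Oaz2 and Amd1 was not tested. Amd2 was listed with 495.5 to 1172 normalized RNA reads per heart and with 0 footprint reads in all 9 libraries. Amd1 and Amd2 together held 20 footprint reads in wild type and 27 in knockout.

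Of the 6 transcripts 3 rose in knockout RNA: Azin1, Oaz2 and Amd1. No member fell. RNA differed for 49.4% of all 10580 genes tested, with 24.3% higher and 25.1% lower (limma, adjusted p below 0.05). The 3 of 6 that passed here are near the 49.4% with both directions counted together, and all 3 were higher. The median log2 fold change of the 6 genes was 0.21, and that of all genes was 0.01. RNA depth did not overlap between the genotypes and was higher in knockout, and the labels name no batch, so depth or batch cannot be told apart from genotype in RNA.

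Azin1 RNA was 323, 410.2, 332 and 342 normalized reads in wild-type hearts 1 to 4. In knockout hearts 6 to 10 it was 418, 469, 474, 436 and 455. All 5 knockout hearts lay above all 4 wild-type hearts, of which heart 2 was the highest; among all genes 40.5% did not overlap between genotypes in RNA, 19.8% with knockout higher. Azin1 rose by 0.36 ± 0.08 on the log2 scale (SE; limma adjusted p = 0.00311), or 1.28-fold.

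Oaz2 RNA was 614, 717, 647 and 593 in wild type and 663, 756, 821, 821 and 818 in knockout. The groups overlap through wild-type heart 2 and knockout heart 6, and the other 4 knockout hearts lay above all wild-type hearts. Oaz2 rose by 0.27 ± 0.08 (SE; limma adjusted p = 0.0158).

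Oaz1 RNA did not follow that of Oaz2. It was 5303, 5151, 5344 and 5898 in wild type and 5025, 4943, 5459, 5858 and 4923 in knockout, with groups that overlap widely. The log2 fold change was -0.05, with a 95% confidence interval from -0.19 to 0.09 (limma adjusted p = 0.533), and quantile normalization turned its sign to 0.03. The difference between the changes of Oaz1 and Oaz2 was not tested.

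Amd1 RNA showed the largest difference of the 6. It was 573, 647, 833 and 923 in wild type and 797, 976, 1045, 1143 and 1303 in knockout. Knockout heart 6 lay within the wild-type range, and the other 4 lay above it. Amd1 rose by 0.51 ± 0.16 (SE; limma adjusted p = 0.0179), and it no longer passed once wild-type heart 1 or 2 was left out (adjusted p = 0.0590 and 0.0565). Its copy Amd2 rose by 0.62 ± 0.15 (SE; limma adjusted p = 0.00454), and of all genes tested Amd2 had the RNA pattern most like Amd1 over the 9 hearts, so the values of the pair cannot be taken as separate.

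Odc1 RNA was 881, 912, 919 and 879 in wild type and 908, 1106, 974, 935 and 1066 in knockout. Knockout hearts 7, 8, 9 and 10 lay above all wild-type hearts and heart 6 among them. The difference of 0.15 ± 0.07 (SE) did not pass (limma adjusted p = 0.0806), with a 95% confidence interval from 0.00 to 0.29. It passed without knockout heart 6 (0.18, adjusted p = 0.0390) and with quantile normalization (0.23, adjusted p = 0.00857).

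Sat1 RNA was 142, 166, 114 and 149 in wild type and 138, 157, 152, 128 and 127 in knockout. The knockout range lay inside the wild-type range. The log2 fold change was -0.02, with a 95% confidence interval from -0.28 to 0.25 (limma adjusted p = 0.920).

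**Figure D2:**
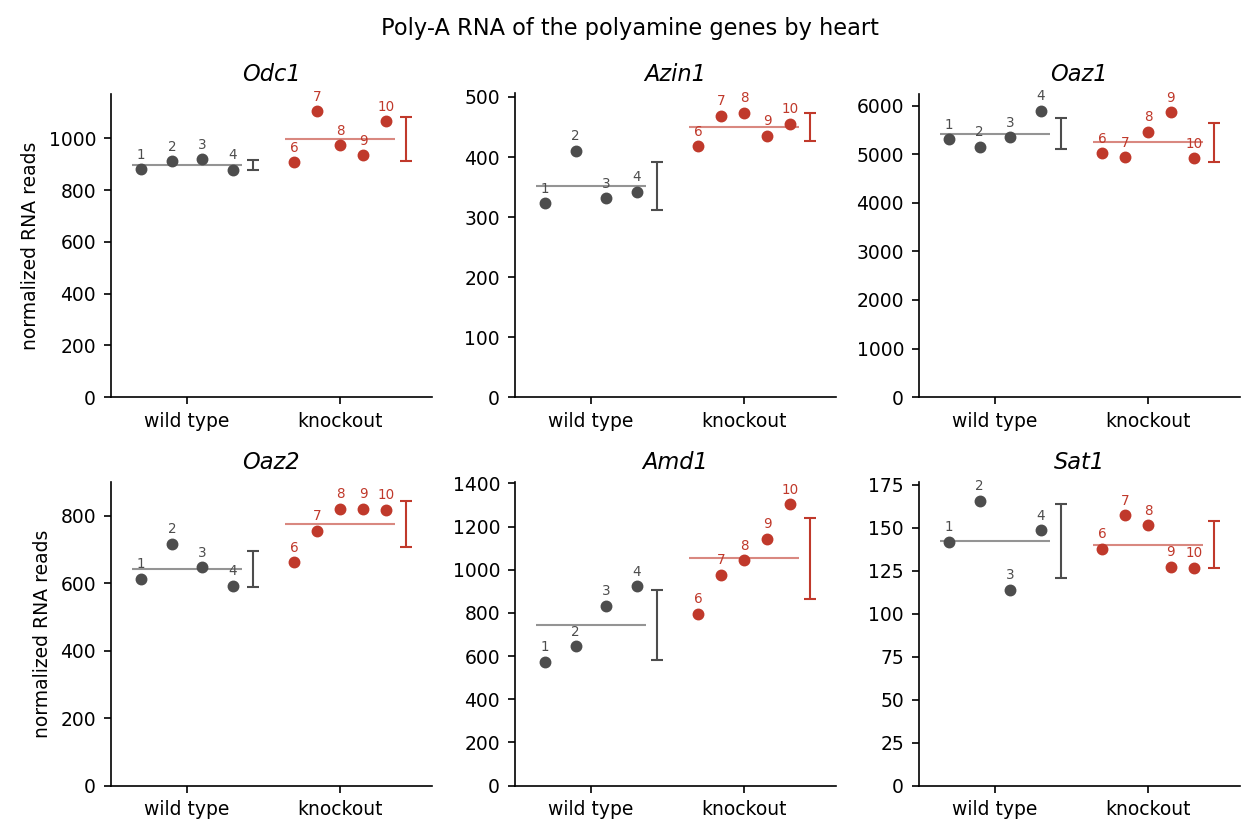
Normalized poly-A RNA reads of each gene by heart, numbered as in the labels, for 4 wild-type (grey) and 5 knockout hearts (red); lines are means and bars ± SD. Azin1 is the gene whose genotypes do not overlap, with 323 to 410.2 in wild type and 418 to 474 in knockout.

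In footprints none of the 5 genes tested passed, in a comparison where 2 of 9976 genes did (0.02%, limma), and an unadjusted p below 0.05 was found for Sat1 alone, against 5.06% of all genes. No member was without overlap between genotypes, against 1.6% of all genes. Neither edgeR nor DESeq2 on whole footprint reads called any of the 5. The fold changes of Odc1, Oaz1, Oaz2 and Sat1 rest on 25 to 359 footprint reads per library, and those of Azin1 on 375 to 2771, so the intervals are wide for all but Azin1.

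Azin1 footprints were 1439, 1294, 1268 and 1483 normalized reads in wild type. In knockout they were 1525, 1359, 1598, 1401 and 1499. Knockout hearts 6, 8 and 10 lay above all wild-type hearts and the groups overlap. The log2 fold change was 0.11, with a 95% confidence interval from -0.15 to 0.36 (limma adjusted p = 0.882). The rise of 0.36 seen in its RNA lies at the upper edge of that interval.

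Sat1 had the lowest footprint value relative to wild type. Its footprints were 157, 335, 218 and 134 in wild type and 151, 107, 78.2, 112 and 137 in knockout. Knockout hearts 7, 8 and 9 lay below all wild-type hearts, and the highest value was that of the shallow wild-type heart 2, with 97 reads. The log2 fold change was -0.79 ± 0.31 (SE), with a 95% confidence interval from -1.44 to -0.14, unadjusted p = 0.0196 and limma adjusted p = 0.851. Without wild-type heart 2 it was -0.54.

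The antizymes varied more between hearts than between genotypes. Oaz1 footprints were 48.5, 124, 74.7 and 56.1 in wild type and 93.0, 172, 115, 107 and 57.1 in knockout. Wild-type heart 2 and knockout heart 7 were the highest of their genotypes, and the log2 fold change was 0.52 with a 95% confidence interval from -0.29 to 1.33 (limma adjusted p = 0.854). It was 0.79 without wild-type heart 2 and 0.34 without knockout heart 7. Oaz2 footprints were 218, 148, 178 and 194 in wild type and 94.7, 310.4, 179, 188 and 204.5 in knockout. Knockout heart 6 was the lowest and heart 7 the highest of all 9, and the log2 fold change was -0.00 with a 95% confidence interval from -0.63 to 0.63 (limma adjusted p = 0.999).

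Odc1 footprints were 71.5, 86.3, 52.9 and 44.7 in wild type and 74.3, 73.0, 73.8, 51.3 and 75.3 in knockout. Knockout heart 9 lay apart from the other 4 knockout hearts, within the wild-type range. The log2 fold change was 0.15, with a 95% confidence interval from -0.61 to 0.92 (limma adjusted p = 0.945).

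**Figure D3:**
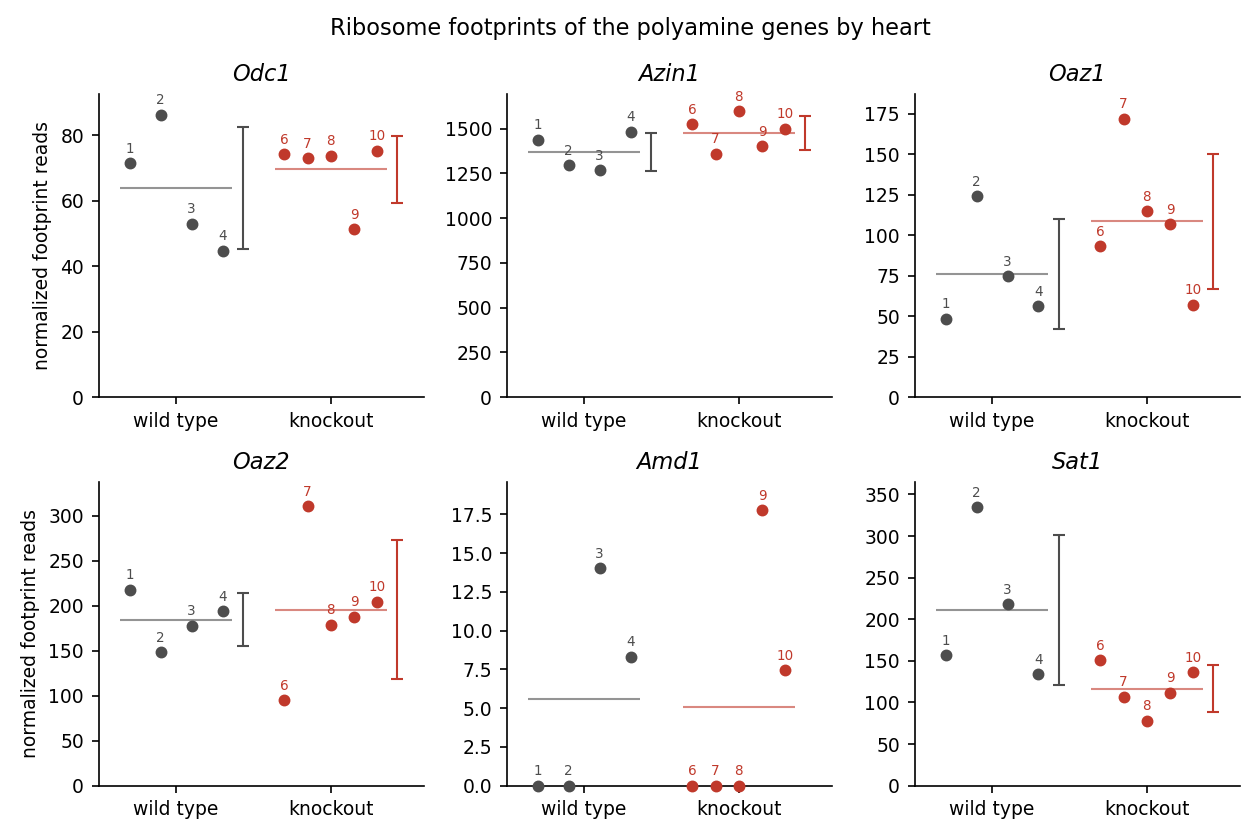
Normalized ribosome footprint reads of each gene by heart, for 4 wild-type (grey) and 5 knockout hearts (red), numbered as in the labels; lines are means and bars ± SD, left out for Amd1, which has hearts at 0. The genotypes overlap for every gene, and Sat1 spans 134 to 335 in wild type and 78.2 to 151 in knockout.

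Translational efficiency was compared as the genotype by assay interaction, and none of the 5 genes tested passed, against 14.4% of 9974 genes (limma), 7.83% higher and 6.55% lower. The unadjusted p was below 0.05 in limma for Sat1 alone, against 27.8% of all genes. In the authors' deposited table it was 0.0219 for Sat1, 0.0337 for Azin1 and 0.0347 for Oaz1, and above 0.05 for Odc1, Oaz2 and Amd1. Adjusted, those of Sat1, Azin1 and Oaz1 were 0.104, 0.140 and 0.143 there. Sat1 efficiency was at -0.78 ± 0.33 on the log2 scale (SE; unadjusted p = 0.0310, limma adjusted p = 0.132), with 3 of 5 knockout hearts below all wild-type hearts in the ratio. Azin1 efficiency was at -0.25 ± 0.13 (SE; limma adjusted p = 0.208), as its RNA rose and its footprints differed by less. Oaz1 efficiency was at 0.57 ± 0.35 (SE; limma adjusted p = 0.302), and at 0.86 without wild-type heart 2 (adjusted p = 0.0979) and 0.37 without knockout heart 7. Oaz2 efficiency was at -0.27, with a 95% confidence interval from -0.92 to 0.37 (limma adjusted p = 0.617). Leaving out single hearts moved it from -0.09 (knockout heart 6) to -0.47 (knockout heart 7), with -0.17 without wild-type heart 1 and -0.42 without wild-type heart 2. The Odc1 value was 0.00, with an interval from -0.48 to 0.49 (limma adjusted p = 0.993). The authors' deposited table gives all 6 genes the tag unchanged, as it does 8984 of 10597 genes (84.8%). The tag is not a statement on RNA alone, since Azin1, Oaz2 and Amd1 carry it with RNA adjusted p-values of 0.000524, 0.00876 and 0.00422 in the authors' deposited table.

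**Figure D4:**
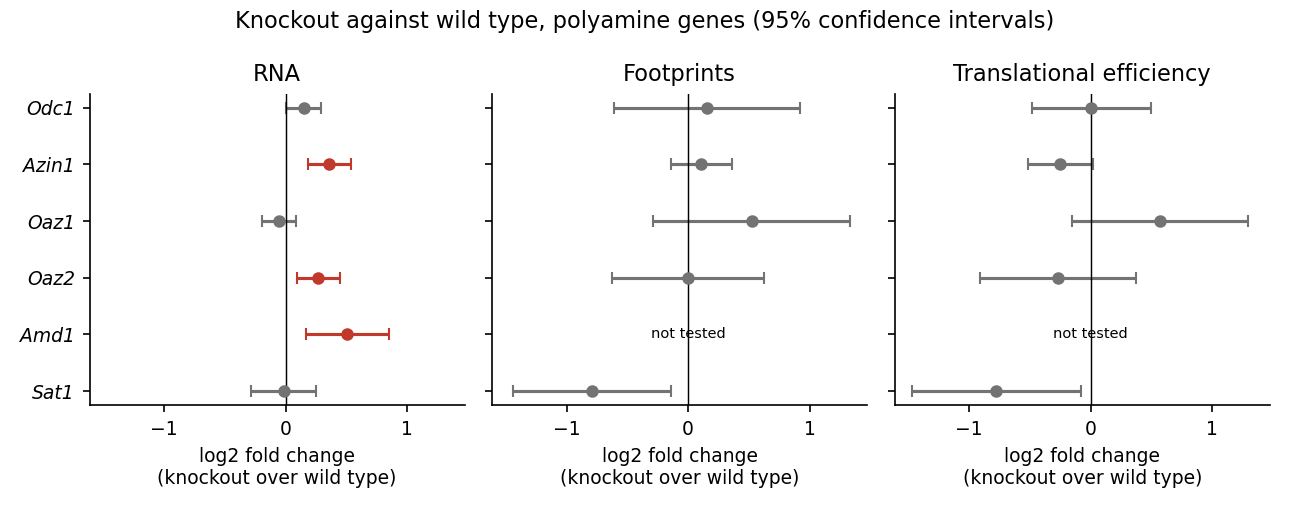
Log2 fold change, knockout over wild type, of each gene in RNA, footprints and translational efficiency with 95% confidence intervals, 4 wild-type against 5 knockout hearts. Red marks limma adjusted p below 0.05, reached in RNA by Azin1 (0.36), Oaz2 (0.27) and Amd1 (0.51); Amd1 was not tested in footprints or efficiency.

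For each gene the most similar heart-to-heart pattern was looked up by Pearson correlation of log2 values over the 9 hearts, which share their libraries and genotype, so these are descriptions. In RNA they were Rfx1 for Odc1 (r = 0.984), Ndufaf8 for Azin1 (r = 0.984), Sephs1 for Oaz1 (r = 0.984) and Gtf2h5 for Oaz2 (r = 0.956). Amd2 was nearest to Amd1 (r = 0.991) and Ano6 to Sat1 (r = 0.952). In footprints they were Kmt2a for Azin1 (r = 0.942), Eya3 for Oaz1 (r = 0.946), Mocos for Oaz2 (r = 0.950) and Rnf19b for Sat1 (r = 0.970). Each was the highest of 10580 genes in RNA or 9976 in footprints, over 9 hearts. Genes with r above 0.9 numbered from 1 (Sat1) to 94 (Azin1) in RNA and from 4 (Oaz1) to 41 (Sat1) in footprints. No member was nearest to another member.

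Other genes of polyamine metabolism also passed in RNA, and none passed in footprints. Over the 5 lists that follow, 15 of 29 listed genes passed in RNA (51.7%), 7 higher and 8 lower, which is near the 49.4% of all genes, so the counts below describe the lists and set none of them apart. In efficiency 7 of the 27 tested passed (25.9%), beside 14.4% of all genes, and in footprints none of 27, beside 0.02% of all genes. These differences from all genes were not tested. Of 11 further synthesis and breakdown enzymes 5 were listed, and 3 fell in RNA while none rose, where 25.1% of all genes fell. Their median log2 fold change was -0.37, and that of all genes was 0.01. Spermine synthase RNA (Sms) was 1057 to 1251 in wild type and 722 to 844 in knockout, with no overlap, as for 40.5% of all genes in RNA, and fell by 0.54 in log2 units (limma adjusted p = 6.48e-05). Spermidine synthase RNA (Srm) was at -0.37 (limma adjusted p = 0.0174) and lost its call without wild-type heart 3 (adjusted p = 0.0563). Spermine oxidase RNA (Smox) was at -0.23 (limma adjusted p = 0.0391) and lost its call without any of hearts 1, 2, 3, 4, 7, 8 or 9 (adjusted p from 0.0584 to 0.0980) and with quantile normalization (adjusted p = 0.0564). Sat2 RNA, at -0.46 (limma adjusted p = 0.0797), passed without knockout heart 8 (adjusted p = 0.0484) and with quantile normalization (adjusted p = 0.0188). Oat RNA, for ornithine aminotransferase, was at 0.17 (limma adjusted p = 0.0603) and passed without knockout heart 6 (adjusted p = 0.0360), with TMM factors (adjusted p = 0.0484) and with quantile normalization (adjusted p = 0.00906). Sms shared the near absence of footprints seen for Amd1, with a wild-type ratio of 0.00444 ± 0.00379 (SD, n = 4), and was not tested in footprints. Ahcy, of the methionine list below, also had a low wild-type ratio, at 0.0160 ± 0.00493 (SD, n = 4), and was not tested there. Srm footprints were 217 to 264 in wild type and 201 to 307 in knockout. None of the 4 enzymes tested in footprints or efficiency passed there.

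Of 10 transport genes 7 were listed; 2 rose in RNA, near the 24.3% of all genes that did, and none fell. Gpc1, the heparan sulphate proteoglycan glypican that has been linked to polyamine uptake, was 2225 to 2691 in wild type and 4187 to 4753 in knockout RNA. It rose by 0.82 (limma adjusted p = 1.85e-06), while its footprints were at -0.11 and its efficiency fell by 0.93 (limma adjusted p = 0.000269). Atp13a2, a lysosomal polyamine exporter, rose by 0.40 in RNA (limma adjusted p = 0.00523), and its efficiency was at -0.86 (limma adjusted p = 0.0329). That efficiency call was lost without any of hearts 2, 3, 4, 7, 9 or 10 (adjusted p from 0.0506 to 0.105).

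Spermidine is used to make hypusine, a residue of the translation factor made from Eif5a. Of 3 listed genes of this step 1 rose in RNA, Dhps, the deoxyhypusine synthase. Its RNA was 125 to 137 in wild type and 220 to 264 in knockout, a rise of 0.83 (limma adjusted p = 1.12e-05), and its efficiency fell by 0.93 (limma adjusted p = 0.00541). Eif5a RNA was at 0.12 without passing (limma adjusted p = 0.0725), and passed with quantile normalization and without wild-type heart 1.

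Of 8 genes of methionine supply and methylthioadenosine salvage, 3 rose and 2 fell in RNA, where 24.3% and 25.1% of all genes did. Mat2a and Mat2b, which encode the subunits of S-adenosylmethionine synthetase, rose by 0.57 and 0.36 (limma adjusted p = 0.00209 and 0.00159). The salvage enzymes Apip and Adi1 fell by 0.71 and 0.52 (limma adjusted p = 1.52e-06 and 0.00204). Enoph1, another salvage enzyme, was at 0.57 (limma adjusted p = 0.0250), a call lost without any of hearts 1, 4, 6, 8 or 10 (adjusted p from 0.0529 to 0.0685) and with quantile normalization (adjusted p = 0.108). In efficiency Apip rose by 0.56 (limma adjusted p = 0.00244) and Mat2b was at -0.40 (limma adjusted p = 0.0328), a call lost without any of hearts 2, 3, 4, 8, 9 or 10 (adjusted p from 0.0543 to 0.109). With hearts paired as replicate blocks Adi1 efficiency also passed, at 0.50 (limma adjusted p = 0.0119). Mat2a efficiency, at -0.45 (limma adjusted p = 0.213), passed without wild-type heart 2 (-0.74, adjusted p = 0.00888). None of the 7 genes tested passed in footprints.

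Of 6 genes linked to Odc1 transcription or to degradation of its enzyme, 1 rose and 3 fell in RNA, where 24.3% and 25.1% of all genes did. Psmc1, a proteasome ATPase, fell by 0.57 (limma adjusted p = 2.38e-05) and its efficiency rose by 0.55 (limma adjusted p = 0.0126). Max, the partner of Myc, fell by 0.46 in RNA (limma adjusted p = 0.00379), and its efficiency was at 1.00 (limma adjusted p = 0.0278), a call lost without any of hearts 1, 4, 7, 8 or 9 (adjusted p from 0.0553 to 0.0894). Myc RNA, whose product activates Odc1, was at -0.57 (limma adjusted p = 0.0449) and lost its call without any of hearts 1, 3, 4, 7, 8 or 9 (adjusted p from 0.0625 to 0.126). Nqo1, whose product is known to bind ornithine decarboxylase, was at 0.52 (limma adjusted p = 0.0315), lost without any of hearts 1, 2, 8 or 9 (adjusted p from 0.0659 to 0.102) and without the mean-variance trend (adjusted p = 0.0505). None of the 6 passed in footprints. All efficiency calls among these lists ran opposite to the RNA change, and RNA enters both tests, so they are not separate evidence.

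**Figure D5:**
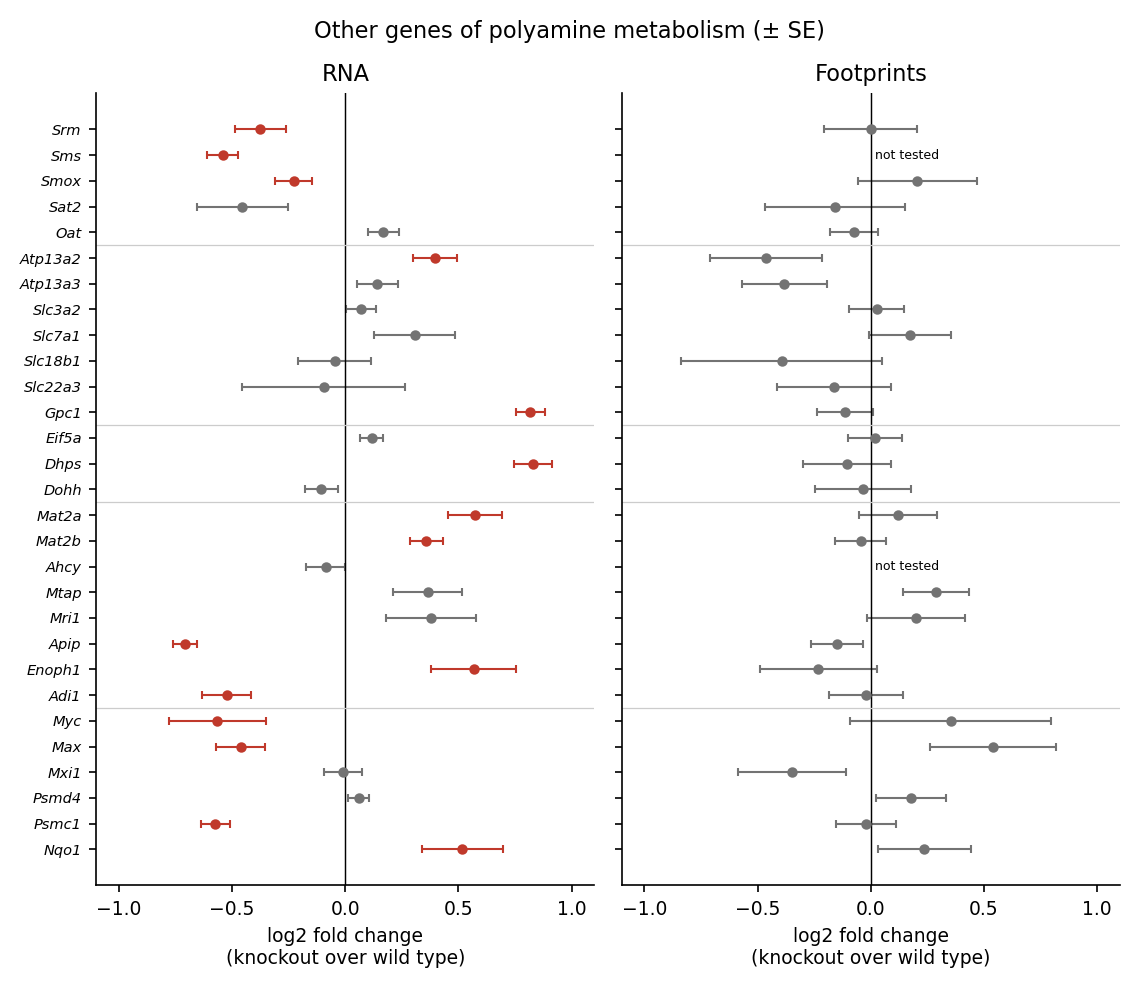
Log2 fold change ± SE, knockout over wild type, of the other listed genes of polyamine metabolism in RNA (left) and footprints (right), 4 wild-type against 5 knockout hearts. From the top the blocks are further enzymes, transport, hypusine formation, methionine supply and salvage, and genes linked to Odc1; red marks limma adjusted p below 0.05, which no gene reached in footprints.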

How the data were processed

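Left ventricles of 9 mice gave 18 libraries. TRIzol extraction, a TruSeq v2 kit for poly-A RNA and a NEXTflex v3 kit for footprints were used, per the labels' protocols. STAR 2.7.1a, HTSeq and DESeq2 on GRCm38 (mm10) are named, per the submitters' processing notes, with no role or order; how the listed genes were selected was not stated there.

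The authors deposited a normalized read signal per gene and library, which from the values is a gene count divided by 1 size factor per library. Whole reads were recovered from the footprint signal (100% of values within 0.01 reads). The deposited efficiency ratio matched the quotient of both signals within 0.0497%, and ratios here are that quotient. The deposited log2 fold changes and p-values were used as an alternative, with the sign of the efficiency fold change turned.

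Symbols were matched for 10560 of 10597 identifiers. limma 3.58.1 (R 4.3.3) was fitted over all genes on log2(value + 1) with a mean-variance trend and a minimum mean of 10, which understates changes of low genes, with Benjamini-Hochberg adjustment over all genes tested and a threshold of 0.05. Fold changes are on that scale. Efficiency was the genotype by assay interaction over 18 libraries, without a heart term. RNA and footprint libraries of a heart carry the same number in the labels and were paired in an alternative; their deviations correlated at 0.238 to 0.575 (median 0.424) within a heart over 6082 genes. edgeR 4.0.16 and DESeq2 1.42.0 were run on whole footprint reads. The scripts were tested on simulated data. No pair of libraries of a group agreed within sampling noise. The labels do not say whether the mice were littermates.

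The genes, lists and tests were chosen with earlier results of these data known. Named were the 6 genes, the target, up to 4 called genes per list and comparison, and the most similar gene per member and assay, of which the one for Odc1 footprints is not reported here. Amd2, Eif5a, Enoph1, Sat2, Oat and Ahcy were added after their values were seen. Atp13a3, Mtap, Mri1 and Psmd4 also lie outside that rule and are named because they passed under an alternative.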

Additional observations from a re-analysis of the deposited data

Results flagged for a closer look

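Odc1 footprints in knockout heart 9, at 51.3 normalized reads (52 whole reads), lay apart from the other 4 knockout hearts, at 73.0 to 75.3. The gap to the nearest heart was 0.904 of the group's range, above the Dixon critical value of 0.71 for 5 samples. It was the only value flagged among 36 groups of the 6 genes (RNA, footprints and ratio in each genotype), where chance flags about 1 in 20.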

How the results depend on the processing

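Without single hearts, RNA calls over all genes ranged from 4772 to 5064 (main 5230), members called in RNA from 2 to 4 (main 3), footprint calls from 0 to 3 (main 2) and efficiency calls from 993 to 1219 (main 1434). Footprint calls were 0 with no filter on low values, and 6 each with DESeq2 on whole reads and in the authors' deposited table. No member was called in footprints or efficiency under any alternative run. With the heart as a replicate block, 1852 genes passed in efficiency and no member's call changed. Signs turned only for values near 0. Oaz1 RNA was 0.0265 with quantile normalization, and Sat1 RNA ranged from -0.119 to 0.0595 without single hearts. Oaz2 footprints were 0.000704 with a pseudocount of 5, 0.0119 with quantile normalization, 0.0651 with edgeR, 0.0690 with DESeq2, 0.0341 in the authors' deposited table, and -0.19 to 0.23 without single hearts. Odc1 footprints ranged from -0.000313 to 0.31 without single hearts. Odc1 efficiency was -0.00515 with a pseudocount of 5, -0.00863 with TMM factors, and -0.14 to 0.16 without single hearts. The causes were not tested. The wild-type ratio of Amd1 was 0.00646, and 0.00301 without wild-type heart 3. Azin1 and Oaz2 RNA passed under all 16 alternatives (log2 fold change 0.32 to 0.44 and 0.23 to 0.33). Atp13a3, Mtap, Mri1 and Psmd4 RNA, not called above, each passed under at least 1 alternative. Low footprint reads limit Oaz1, Oaz2, Odc1 and Sat1.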
